A study of Triticum aestivum with 15 samples.

Results

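Flowering in temperate cereals is timed by day length through genes that act in the leaf. FLOWERING LOCUS T1 (FT1, also called VRN3) encodes the mobile flowering signal, or florigen, which is made in leaves and moves to the shoot tip. PHOTOPERIOD1 (PPD1) encodes a pseudo-response regulator of the circadian clock family that promotes FT1 expression in long days, and its transcripts are known to cycle over the day. Bread wheat (Triticum aestivum) is hexaploid, with A, B and D subgenomes, and either gene can be present on each of them.

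The genes described here are 5 of the 269207 gene identifiers in the count table. They are the 3 FT1 copies, TraesCS7A02G115400 (FT1-A), TraesCS7B02G013100 (FT1-B) and TraesCS7D02G111600 (FT1-D), and 2 PPD1 copies, TraesCS2A02G081900 (PPD-A1) and TraesCS2D02G079600 (PPD-D1). They were chosen by identifier and not by their values. The identifiers place FT1 on chromosomes 7A, 7B and 7D and PPD1 on chromosomes 2A and 2D, and the B copy of PPD1 was not analysed here. The names came from the list that defined the genes, since 0 identifiers of the table matched the RefSeq gene table used here. The other genes of the photoperiod pathway therefore could not be named, the labelled organs were not checked against marker genes, and no sequence of the copies is shown.

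The plants were wild-type cultivar Fielder, a spring wheat, grown in hydroponic boxes. All of them received 12 days of complete solution with 50 µM iron as NaFe-EDTA, followed by a solution with 0 µM iron for up to 11 days. Messenger RNA was sequenced in 5 groups of 3 libraries. Leaf 1 was taken on day 0, before iron was withdrawn, and on day 1 of deficiency. Leaf 3 was taken on day 7, and on day 11 leaves 3 to 5 formed 1 group and the roots another. The study used 3 plants whose numbers recur in every group, here plants 1, 2 and 3. Every later leaf group came from plants that were older and longer without iron, and days 7 and 11 came from other leaf positions than days 0 and 1, so plant age, leaf position and iron supply cannot be told apart in those comparisons. No iron-replete library of days 1, 7 or 11 was analysed, and the sources used here do not state the day length or the hour of harvest.

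Library totals ran from 15434838 to 25552816 counts. Levels are given in CPM, which relates counts to the library total scaled with TMM factors over all 15 libraries. They are not per length, so a higher CPM of one copy does not by itself mean more transcripts than of another. A group at 0 counts has a floor of 3 counts over its libraries, which was 0.0327 CPM in roots and 0.0652 CPM on day 0. Floors and intervals cover counting error only. In whole tissue, fewer cells that express a gene and less RNA per cell cannot be told apart. Unless another test is named, adjusted p-values are from edgeR's quasi-likelihood test with Benjamini-Hochberg adjustment over all genes tested, and a gene was called at an adjusted p under 0.05.

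The copies differed widely in how many counts they gave. PPD-D1 gave 5894 counts over the 15 libraries and was detected in 15 of them, and PPD-A1 gave 992 counts in 14. FT1-B gave 995 counts and was detected in all 12 leaf libraries, FT1-D gave 259 counts in 9 libraries, and FT1-A gave only 32 counts in 5. FT1-B thus made up 77.4% of all FT1 counts and PPD-D1 85.6% of the counts of both PPD1 copies. FT1-A did not pass the filter on low counts and was not tested. The other 4 genes were tested in the leaves, and FT1-D did not pass in the fit of day 11 roots and leaves.

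**Figure D1:**
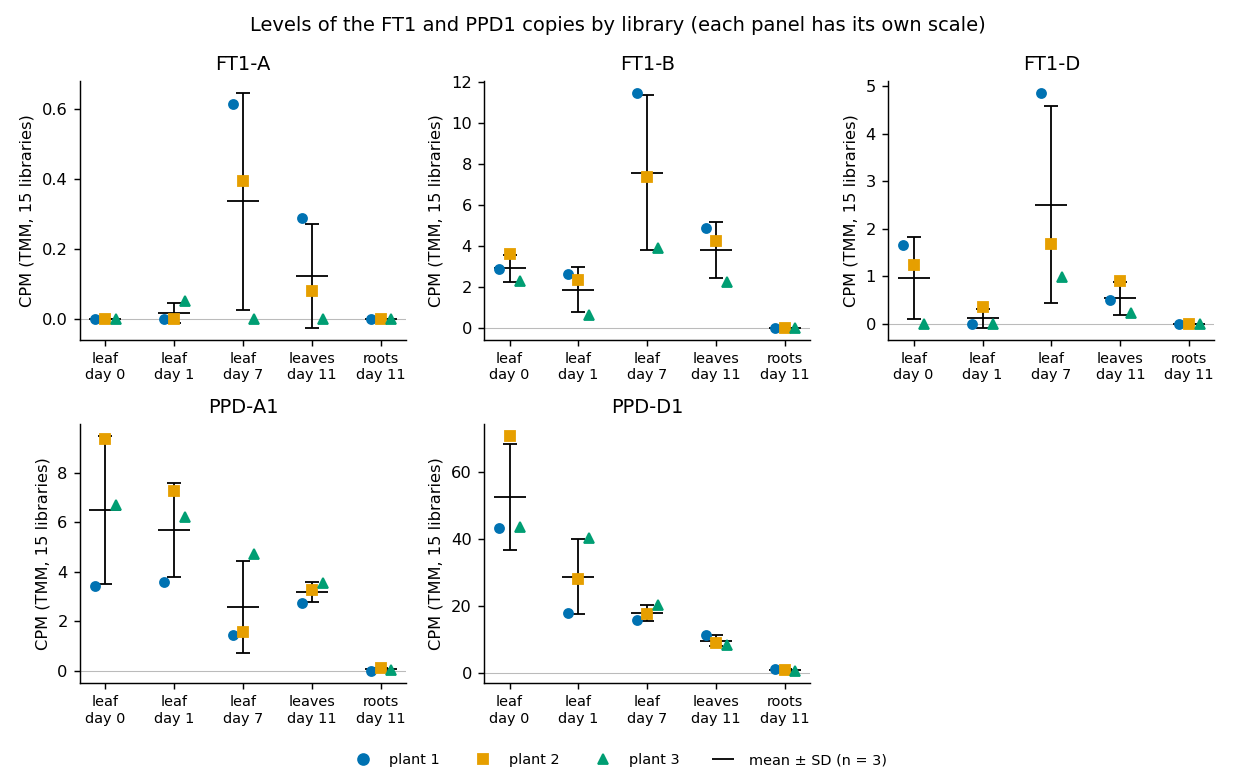
Level (CPM, TMM-scaled over 15 libraries) of each FT1 and PPD1 copy in every library, with groups on the x axis, points for plants 1 to 3, and the mean ± SD (n = 3). FT1-B and FT1-D had their highest mean on day 7, PPD-D1 stood lower in each later leaf group, and all FT1 copies were at 0 in roots.

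PPD-D1 was highest in leaf 1 before iron was withdrawn and lower in every later group. On day 0 it stood at 43.1, 70.6 and 43.6 CPM in plants 1, 2 and 3. On day 1 the values were 17.99, 27.97 and 40.2 CPM. The groups did not overlap, although plant 3 differed little between the days. On day 7 PPD-D1 stood at 15.8, 17.6 and 20.3 CPM, and on day 11 at 11.4, 8.90 and 8.49 CPM in the leaves. All 3 plants were therefore lower on day 11 than on day 7, and those groups did not overlap either. The roots held 1.33, 0.812 and 0.689 CPM, below every leaf library.

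The PPD-D1 mean was 52.4 ± 15.7 CPM on day 0, 28.7 ± 11.1 on day 1 and 17.9 ± 2.27 on day 7 (SD, n = 3 each). It was 9.60 ± 1.58 CPM in the leaves of day 11 and 0.944 ± 0.341 in the roots. PPD-D1 fell between day 0 and day 7, with a log2 fold change of -1.55 (SE 0.29, adjusted p = 0.0032), and it was lower in 3 of 3 plants. From day 0 to day 11 the leaf level fell 5.46-fold by the means, with a log2 fold change of -2.45 (SE 0.30, adjusted p = 7.8e-05). Day 11 leaves were also below day 1, with a log2 fold change of -1.58 (SE 0.29, adjusted p = 0.0012). The step from day 0 to day 1 was not called (log2 fold change -0.87, SE 0.28, adjusted p = 0.15), nor was that from day 1 to day 7 (-0.69, SE 0.28, adjusted p = 0.083). The step from day 7 to day 11 was called narrowly (-0.89, SE 0.29, adjusted p = 0.047). That call ended with the plant as a block (adjusted p = 0.071), without plant 1 (0.060), plant 2 (0.25) or plant 3 (0.17), and without the day 7 library of plant 3 (0.11). It was also lost with no filter on low counts (0.050) and with library totals as the only scaling (0.16). The fall from day 0 to day 7 also lost its call without plant 2 (adjusted p = 0.11).

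PPD-A1 gave fewer counts than PPD-D1 in every library. On day 0 it stood at 3.42, 9.40 and 6.70 CPM in plants 1, 2 and 3. On day 1 it stood at 3.57, 7.26 and 6.22 CPM. These ranges overlapped almost entirely. On day 7 the values were 1.44, 1.58 and 4.72 CPM, and in day 11 leaves they were 2.75, 3.25 and 3.53 CPM. Plant 3 alone kept a level on day 7 within the range of day 0, and plant 1 was the lowest of the plants in 4 of 4 leaf groups.

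PPD-A1 had group means of 6.50 ± 2.99 CPM on day 0, 5.68 ± 1.90 on day 1, 2.58 ± 1.85 on day 7 and 3.18 ± 0.397 in day 11 leaves (SD, n = 3 each). No leaf comparison of PPD-A1 was called in the edgeR fit of all leaf libraries with the group as its only term. From day 0 to day 7 its log2 fold change was -1.33 (SE 0.49, adjusted p = 0.062), lower in 3 of 3 plants. It was called with the plant as a block (adjusted p = 0.029) and with DESeq2 (0.034). Between day 1 and day 7 the value was -1.14 (SE 0.49, adjusted p = 0.090), and 0.039 with the block. Without the day 7 library of plant 3 both were called (adjusted p = 0.0046 and 0.0052). From day 0 to day 11 the log2 fold change was -1.03 (SE 0.48, adjusted p = 0.10), and it was called without the day 0 library of plant 1 (0.042) or without plant 3 in day 7 (0.037), a library outside both groups. Day 11 against day 1 gave -0.84 (SE 0.48, adjusted p = 0.17), and was called where only those 6 libraries were fitted (0.020). From day 7 to day 11 PPD-A1 had a log2 fold change of 0.31 (SE 0.49, adjusted p = 0.70), where that of PPD-D1 was -0.89.

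The share of PPD1 counts that came from PPD-A1 sets the copies against each other within a library, and a change in it does not depend on transcript length or library scaling. On day 0 the share was 7.34%, 11.7% and 13.3% in plants 1, 2 and 3. On day 1 it was 16.6%, 20.6% and 13.4%, and on day 7 it was 8.40%, 8.23% and 18.9%. In day 11 leaves it was 19.4%, 26.8% and 29.4%. Day 11 lay above day 0 without overlap, and the share on day 7 of plant 3 stood apart from the other plants. The exact 95% (Clopper-Pearson) interval of that library, 15.6% to 22.5%, did not reach those of plants 1 and 2 (5.85% to 11.6% and 5.69% to 11.4%). The means were 10.8% ± 3.09 on day 0, 16.9% ± 3.61 on day 1, 11.8% ± 6.10 on day 7 and 25.2% ± 5.17 on day 11 (SD, n = 3 each). Over the 4 leaf groups the share differed in an exact permutation test of the between-group sum of squares (p = 0.023), but not after adjustment over the 4 copy shares tested (adjusted p = 0.092). With labels permuted within plants the exact permutation p was 0.036 (adjusted p = 0.146). In roots PPD-A1 gave 0, 4 and 1 of 35, 30 and 24 PPD1 counts. The exact 95% interval of the 0 of 35 reached 10.0%.

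**Figure D2:**
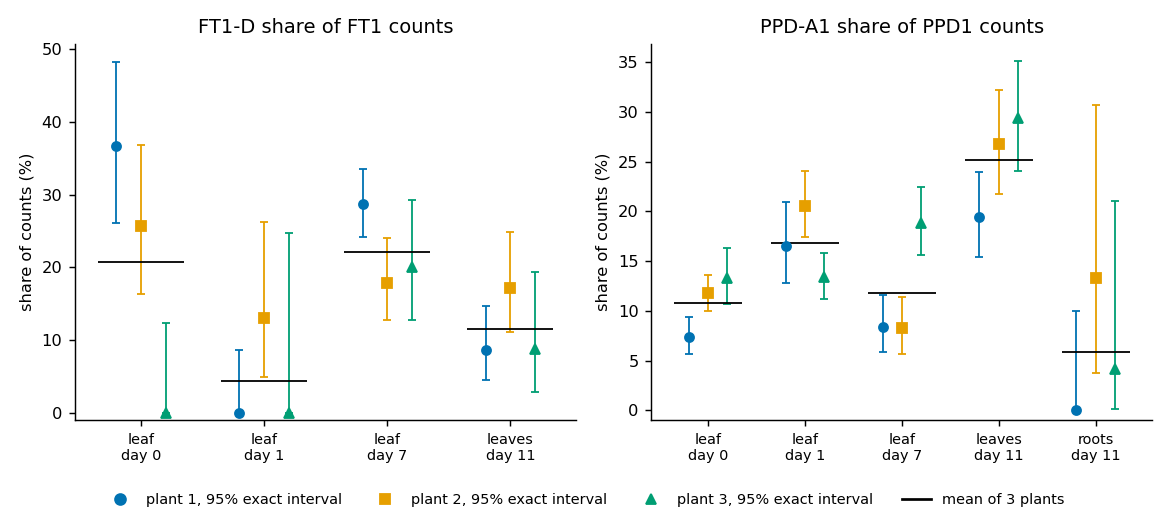
Share of counts (%) from FT1-D among the 3 FT1 copies (left) and from PPD-A1 among the 2 PPD1 copies (right) in each library, with exact 95% intervals, and lines for group means. The PPD-A1 share averaged 10.8% on day 0 and 25.2% in day 11 leaves, while the FT1-D share ranged from 0% to 36.7% on day 0.

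FT1-B, the copy with most FT1 counts, had its highest levels in leaf 3 on day 7. On day 0 it stood at 2.85, 3.59 and 2.29 CPM in plants 1, 2 and 3, and on day 1 at 2.61, 2.34 and 0.611 CPM. On day 7 it stood at 11.5, 7.34 and 3.89 CPM, so that even the lowest day 7 library was above the highest of days 0 and 1. In day 11 leaves the values were 4.88, 4.22 and 2.24 CPM, which overlapped both day 0 and day 7. Plant 3 was the lowest of the plants in 4 of 4 leaf groups.

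FT1-B had means of 2.91 ± 0.651 CPM on day 0, 1.86 ± 1.09 on day 1, 7.57 ± 3.79 on day 7 and 3.78 ± 1.38 in day 11 leaves (SD, n = 3 each). It rose from day 1 to day 7, with a log2 fold change of 2.04 (SE 0.53, adjusted p = 0.012), and was higher in 3 of 3 plants, by 4.38-fold, 3.14-fold and 6.36-fold. This call ended without plant 1 (adjusted p = 0.091) or plant 2 (0.12). Against day 0 the day 7 level was 2.60-fold higher by the means and higher in 3 of 3 plants, with a log2 fold change of 1.37 (SE 0.51, adjusted p = 0.066). With the plant as a block this comparison was called (log2 fold change 1.28, adjusted p = 0.015), as it was with DESeq2 (0.041), without plant 3 (0.0095) and without the day 7 library of plant 3 (0.028). From day 7 to day 11 FT1-B had a log2 fold change of -0.996 (SE 0.50, adjusted p = 0.18), with 0.048 under the block. From day 1 to day 11 it had 1.04 (SE 0.52, adjusted p = 0.12), with 0.015 under the block. Day 11 and day 0 did not differ beyond their spread (0.38, SE 0.51, adjusted p = 0.57), nor did day 1 and day 0 (-0.67, SE 0.53, adjusted p = 0.54).

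FT1-D followed the same order of days only in part, and was at 0 in several leaf libraries. Its counts on day 0 were 29, 20 and 0 in plants 1, 2 and 3, which is 1.65, 1.24 and 0 CPM. On day 1 the counts were 0, 6 and 0. On day 7 they were 111, 34 and 20, or 4.86, 1.68 and 0.972 CPM, and in day 11 leaves 12, 22 and 5, or 0.492, 0.894 and 0.215 CPM. Every day 7 library was above every day 1 and every day 11 library, and FT1-D was detected in all 6 of these later leaf libraries. Plant 3 had no FT1-D count on day 0 or day 1, where FT1-B gave 28 and 12 counts.

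FT1-D rose from 0.117 ± 0.203 CPM on day 1 to 2.50 ± 2.07 on day 7 (SD, n = 3), with a log2 fold change of 4.36 (SE 1.38, adjusted p = 0.030). With 6 counts on day 1 the pooled ratio was 22.6, with an exact 95% counting interval of 10.2 to 62.5. The call ended without plant 1 (adjusted p = 0.31) or plant 2 (0.095). Against 0.963 ± 0.859 CPM on day 0 the day 7 level was not called (log2 fold change 1.35, SE 1.12, adjusted p = 0.39). The value of 0.534 ± 0.341 CPM in day 11 leaves was not called against day 7 (-2.21, SE 1.15, adjusted p = 0.20), day 0 (-0.87, SE 1.15, adjusted p = 0.57) or day 1 (2.15, SE 1.39, adjusted p = 0.22). The day 1 level was not called against day 0 (-3.02, SE 1.38, adjusted p = 0.27).

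FT1-A was close to the limit of detection. It gave 0 counts in all day 0 libraries and 1 count on day 1, in plant 3. On day 7 it gave 14, 8 and 0 counts in plants 1, 2 and 3, and in day 11 leaves 7, 2 and 0. Its mean on day 7, 0.336 ± 0.311 CPM (SD, n = 3), was 5.15-fold the floor of 3 counts over the day 0 group. The exact 95% counting interval of the pooled ratio to day 0 began at 3.95. Against the single count on day 1 the pooled ratio was 18.1, with an exact 95% counting interval of 2.92 to 747. Without the filter FT1-A was tested and not called between day 0 and day 7 (adjusted p = 0.13). Plant 3, the lowest in FT1-B, gave 0 FT1-A counts in both later leaf groups.

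The shares of the FT1 copies showed no difference between days that passed the test. FT1-B gave 63.3%, 74.4% and 100% of the FT1 counts in plants 1, 2 and 3 on day 0. On day 7 it gave 67.7%, 78.0% and 80.0%, and in day 11 leaves 86.2%, 81.2% and 91.2%. FT1-D gave 36.7%, 25.6% and 0% on day 0. On day 7 FT1-D gave 28.7%, 17.8% and 20.0%, and in day 11 leaves 8.70%, 17.2% and 8.77%. The 0 of 28 counts in plant 3 on day 0 allows a share of up to 10.7%, which is below the intervals of plant 1 (26.1% to 48.3%) and plant 2 (16.4% to 36.8%) on that day. Day 1 was left out of the test because plant 3 had 13 FT1 counts, under the minimum of 20. Over days 0, 7 and 11 the exact permutation test gave p = 0.36 for the FT1-A share, 0.55 for FT1-B and 0.50 for FT1-D (adjusted p = 0.55 for each).

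**Figure D3:**
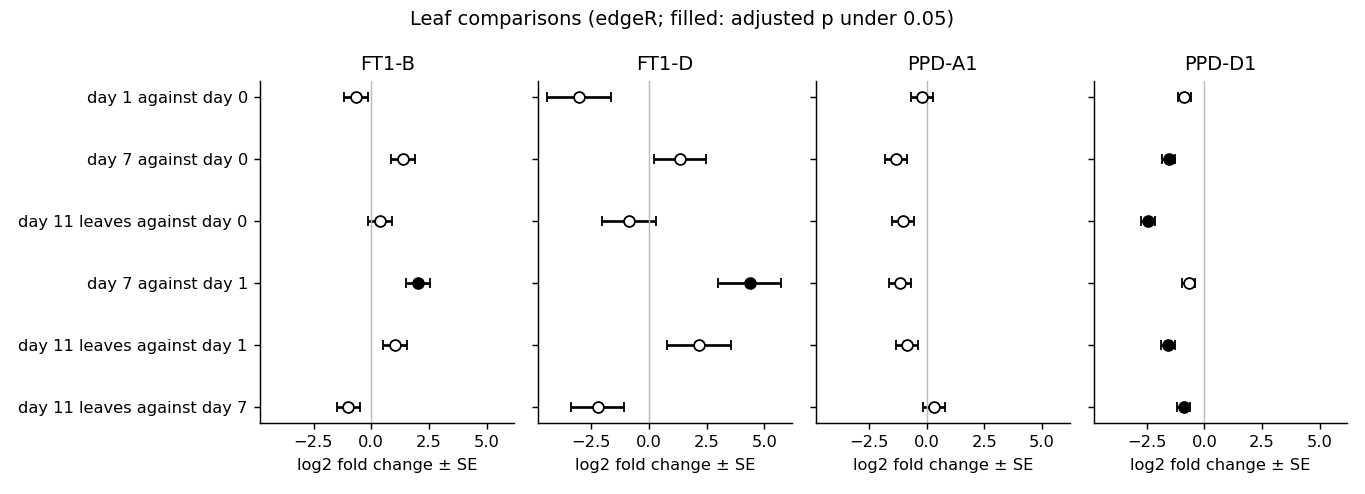
log2 fold change ± SE of the 4 copies tested (edgeR, leaf libraries) in the 6 leaf comparisons, with filled points for an adjusted p under 0.05. PPD-D1 has filled points to the left of 0 in 4 comparisons, FT1-B and FT1-D have theirs to the right of 0 for day 7 against day 1, and PPD-A1 has none.

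Calls in leaves are listed here by comparison beside the shares of all genes. With only 4 genes tested, these counts are not read as a result about the copies. Between day 0 and day 1, the only contrast that keeps the leaf position, 0 of the 4 tested were called by edgeR. Of all genes edgeR called 1.29%, 0.759% higher and 0.535% lower. At an unadjusted edgeR p under 0.05 there was 1, PPD-D1, and 18.5% of all genes. DESeq2 also called 0 of the 4 there, and 4576 of the 62841 genes tested. All 4 tested genes had a negative log2 fold change there, where the median of all genes tested was -0.01. With none called, these signs are not read as a common fall. For day 7 against day 0, 1 was lower and 0 higher, against 13.9% lower and 14.3% higher of all genes. For day 11 leaves against day 0, 1 was lower and 0 higher, against 22.7% and 21.6%. Between day 1 and day 7, 2 were higher, both FT1 copies, and 0 lower, against 19.7% higher and 15.9% lower. Day 11 leaves against day 1 gave 1 lower and 0 higher, against 23.3% and 24.3%. Day 11 leaves against day 7 gave 1 lower and 0 higher, against 13.2% and 8.74%. Groups without overlap were common among all genes: PPD-D1 was such a gene on the lower side of day 1 against day 0 (10.6% of genes), day 7 against day 0 (19%) and day 11 against day 0 (26.9%). With PPD-A1 it was 1 of 2 for day 11 against day 1 (30.1%), and with FT1-D 1 of 2 for day 11 against day 7 (23.2%). FT1-B was 1 on the higher side for day 7 against day 0 (20.3%), and with FT1-D 1 of 2 for day 7 against day 1 (25.9%). Comparisons that share a group are not independent. The median log2 fold change of the tested copies was -0.77, 0.01 and -0.95 for days 1, 7 and 11 against day 0. That of all genes tested was -0.01, 0.09 and 0.12. The day 7 median of the copies hides opposite directions. FT1-B and FT1-D stood at 1.37 and 1.35, and PPD-A1 and PPD-D1 at -1.33 and -1.55. These medians are therefore not read as a result about the copies.

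The copies were also summed to 1 value per gene, which sets aside only how counted reads were divided between the summed copies. Reads left uncounted because they matched several copies, or counted for the B copy of PPD1, would still be missing. Summed in this way, FT1 stood at 4.50, 4.82 and 2.29 CPM on day 0 and at 2.61, 2.69 and 0.662 on day 1. It stood at 16.9, 9.41 and 4.86 CPM on day 7 and at 5.66, 5.20 and 2.46 in day 11 leaves. In each plant the summed FT1 level was lowest on day 1 and highest on day 7. The summed FT1 rose from day 1 to day 7 (log2 fold change 2.40, SE 0.58, adjusted p = 0.0090), and this call ended without plant 1 (0.095) or plant 2 (0.093). Day 7 against day 0 gave 1.42 (SE 0.56, adjusted p = 0.079), and 0.0062 with the plant as a block. Under the block day 11 leaves were also called above day 1 (0.0044, against 0.12 without it) and below day 7 (0.012, against 0.14). The summed PPD1 copies fell from 58.9 ± 18.3 CPM on day 0 to 20.5 ± 4.05 on day 7 and 12.8 ± 1.20 in day 11 leaves (SD, n = 3 each), with log2 fold changes of -1.53 (SE 0.29, adjusted p = 0.0035) and -2.20 (SE 0.29, adjusted p = 0.00015) against day 0. The first of these ended without plant 2 (adjusted p = 0.12).

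The ratio of FT1 to PPD1 counts within a library needs no scaling between libraries. It was computed after the levels had been seen, so it is given as a description, with no test. Leaves of day 0 had 9.67, 6.03 and 4.55 FT1 counts per 100 PPD1 counts in plants 1, 2 and 3. On day 1 there were 12.1, 7.64 and 1.43. On day 7 there were 98.5, 49.1 and 19.5, and in day 11 leaves 40.0, 42.8 and 20.4. All libraries of days 7 and 11 were above all libraries of days 0 and 1. The day 7 mean of 55.7 ± 39.9 (SD, n = 3) was 34.3 without plant 1, beside 34.4 ± 12.2 in day 11 leaves with all plants. Plant 3 had the lowest ratio in every leaf group.

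**Figure D4:**
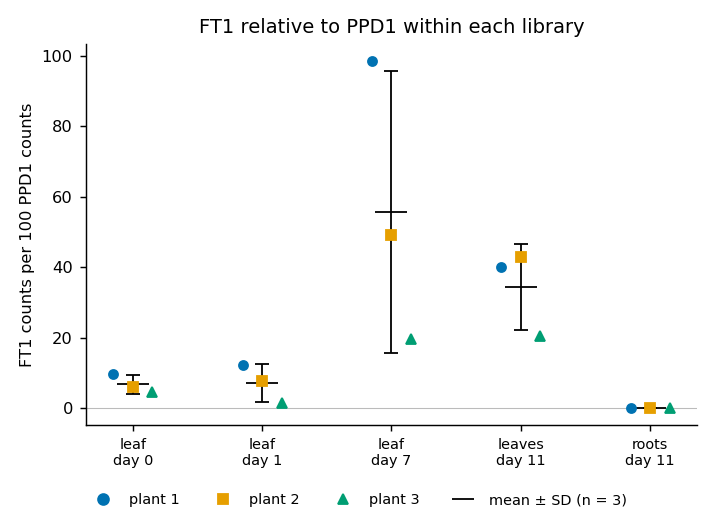
FT1 counts (3 copies) per 100 PPD1 counts (2 copies) in each library by group, with points for plants 1 to 3 and the mean ± SD (n = 3). Days 0 and 1 lie between 1.43 and 12.1, days 7 and 11 leaves between 19.5 and 98.5, and roots at 0.

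Within a day, plants with more PPD1 were not seen to have more FT1. After the group means were removed, the summed PPD1 and FT1 levels (log2 CPM) of the 12 leaf libraries had Pearson's r = -0.42 (exact permutation within days, p = 0.32) and Spearman's rho = -0.35 (p = 0.39), and r = -0.37 without the 2 libraries farthest from the median. PPD-A1 and PPD-D1 had r = 0.59 (p = 0.077) and rho = 0.69 (p = 0.061), r = 0.59 without those libraries and r = 0.36 without plant 1. FT1-B and FT1-D had r = 0.55 (p = 0.056) and rho = 0.57 (p = 0.074), r = 0.52 without them and r = 0.16 without plant 3. Without plant 3 the relation of PPD1 and FT1 was r = 0.0060. None of the 5 relations passed the adjustment (adjusted p of r from 0.19 to 0.32). The pairs with FT1-A, r = 0.48 with FT1-B (rho = 0.29) and 0.30 with FT1-D (rho = 0.33), rest on few counts. Libraries of the same plant enter on several days, so the 12 points are not independent.

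Roots of day 11 had no FT1 count of any copy in any of the 3 libraries. Compared with day 11 leaves, FT1-B was at least 116-fold lower in roots, by the leaf mean against the floor of 3 counts over the root group. FT1-D was at least 16.3-fold lower by its mean. With no root count, FT1-B and FT1-D could come out only as lower, so their root tests are not read. FT1-A was at least 3.76-fold lower by its mean, a bound that rests on 9 leaf counts. 

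PPD1 was present in roots, at a low level. PPD-D1 stood 10.2-fold below day 11 leaves by the means (log2 fold change -3.30, SE 0.25, adjusted p = 1.7e-05), and gave 35, 26 and 23 root counts in plants 1, 2 and 3. PPD-A1 gave 5 root counts in all. Its pooled level in leaves was 58.2 times that in roots, with an exact 95% counting interval of 24.6 to 181 (log2 fold change -5.70, SE 0.52, adjusted p = 4.4e-05). Both PPD1 copies were called lower in roots than in day 11 leaves, where 32.7% of all genes were. Against the leaves of day 0, day 1 and day 7, in a fit of all 15 libraries, both were called lower too. Of all genes 29.4%, 28% and 31.7% were. The PPD-A1 tests rest on 5 root counts. FT1-B and FT1-D, at 0 in every root library, passed the filter on low counts through the leaves alone where they passed it. They could be called only in this direction, so their root tests are not counted here.

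The order of the group means was day 0, day 1, day 7, day 11 leaves and roots for PPD-D1, and day 0, day 1, day 11 leaves, day 7 and roots for PPD-A1. FT1-B ran from day 7 through day 11, day 0 and day 1 to roots, and FT1-D from day 7 through day 0, day 11 and day 1 to roots. Between neighbours in these orders, the step of PPD-D1 from day 7 to day 11 passed the test narrowly in the leaf fit (adjusted p = 0.047). It was called in only 5 of 12 alternative settings, and several fits without a block lost it too. The steps down to roots of PPD-D1 and PPD-A1 passed the test as well. For FT1-B and FT1-D, at 0 in every root library, the direction of that step was fixed, and its test is not read. With the plant as a block the leaf step of PPD-D1 was not called (adjusted p = 0.071) and that of FT1-B from day 7 to day 11 was (0.048). The mean of the lowest leaf group of FT1-B, day 1, was 56.7-fold the floor of the roots. The lowest leaf group of PPD-A1, day 7, was called above roots (adjusted p = 4.8e-05).

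Other genes followed the leaf patterns closely. Among 49140 genes tested in leaves with a mean of 1 CPM or more, those most like the summed FT1 over the 12 leaf libraries were TraesCS1B02G217500 (Pearson's r = 0.954) and TraesCS4A02G053800 (r = 0.929). TraesCS1B02G217500 stood at 14.5, 10.9, 22.4 and 16.1 CPM on days 0, 1, 7 and 11 (means, n = 3) and at 9.99 CPM in roots. TraesCS4A02G053800 stood at 1.48, 1.08, 3.22 and 1.499 CPM and at 4.61 CPM in roots, above its leaf levels. Those most like the summed PPD1 were TraesCS2A02G182600 (r = 0.980) and TraesCS3A02G114300 (r = 0.973). TraesCS2A02G182600 stood at 403, 303, 216 and 158.0 CPM on days 0, 1, 7 and 11 and at 35.8 CPM in roots. TraesCS3A02G114300 stood at 58.6, 38.3, 17.0 and 9.21 CPM and at 4.48 CPM in roots. Of all these genes, 628 had r over 0.9 with PPD1 and 19 with FT1.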

How the data were processed

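The deposited values are raw counts per gene from 1 table covering high and low confidence genes in 15 libraries. Per the labels, libraries were made with a stranded kit. The submitters' processing notes list MultiQC 1.11 and FastQC 0.74 for quality, Trim Galore 0.6.7 for trimming, featureCounts 2.0.3 as the counter, and also HISAT2 2.2.1 with StringTie 2.2.3. The build, strand option and handling of multi-mapped reads are not stated there, so counts of near-identical copies, and of overlapping genes, are uncertain. The table has 0 value columns without a sample.

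Testing used edgeR 4.0.16 under R 4.3.3, with TMM factors, filterByExpr, the quasi-likelihood fit and test, and the group as the only term. The 12 leaf libraries gave 1 fit (62841 genes), the 6 of day 11 another (67922 genes), and all 15 a further one (72519 genes), used for levels and for roots against earlier leaves. The SE is the size of the fold change divided by the square root of F. DESeq2 1.42.0 and other settings were alternatives. The fits were tested on simulated data. Shares and relations used exact permutation tests (SciPy 1.17.1), with a minimum of 20 counts for a share and a prior count of 2 for log2 CPM.

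Per the labels (the series' design text), 3 plants were used and their numbers recur in each group, which is where the pairing comes from. Deviations from group means in leaf libraries correlated at -0.15 to 0.24 within plants (18 pairs, median 0.003) and at -0.33 to 0.28 between plants (36 pairs, median -0.0065). The genes named as most like FT1 or PPD1 are the 2 with the highest r for each. The FT1 and PPD1 copies were picked by identifier. Earlier results of these data were known when the copies, comparisons and lists were chosen. No replicate pair agreed within sampling noise (chi-square per degree of freedom 4.32 or more).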

Additional observations from a re-analysis of the deposited data

How the results depend on the processing

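The sign of every tested copy's log2 fold change held in all alternatives, but calls in leaves did not. Among 493 alternative values of the single copies tested and of their sums, 444 kept their side of the threshold, 34 gained a call and 15 lost one. For day 7 against day 0, 1 copy was called, but 3 were with DESeq2 and with the replicate block, 2 with library totals only, and 0 to 3 with 1 plant or library left out. For day 11 leaves against day 0 it was 1, and 1 to 2 with 1 left out. For day 7 against day 1 it was 2, but 3 with the replicate block, and 0 to 3 with 1 left out. For day 11 leaves against day 1 it was 1, but 2 with the replicate block, with library totals only and with only the 6 libraries compared, and 1 to 2 with 1 left out. For day 11 leaves against day 7 it was 1, but 0 with no filter and with library totals only, and 0 to 1 with 1 left out; under the block the call passed from PPD-D1 to FT1-B. For day 7 against day 0, DESeq2 called 21184 of the 62841 genes tested, where the main fit called 17732. Shares of all genes under the other settings are not given here. No change of a count is therefore read as a result about these copies. The causes were not tested. Day 1 against day 0 gave 0 in all alternatives. Roots against leaves gave 3 or 4, which include FT1 copies at 0 in roots that could be called only as lower. Library totals without scaling factors, an alternative added after the data were seen, moved the median of all genes for day 11 leaves against day 0 from 0.12 to 0.60 (log2), and FT1-B there from 0.38 to 0.86. Summing the copies leaves no count over 5 genes, so it is given as values in the report. For the PPD-A1 share the adjusted p was 0.146 with the replicate block and 0.14 for the log2 ratio of copies, and ran from 0.114 to 0.838 with 1 plant left out. With 1 plant left out the relations had only 16 permutations and could not pass the threshold; those of FT1-A with FT1-D (r = -0.0077) and of PPD1 with FT1 (r = 0.0060) changed sign without plant 3. Few counts stand behind FT1-A (32 in all) and behind FT1-D on day 1 (6).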
